A study of Rattus norvegicus with 18 samples.

Results

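Rat cortical astrocytes that had grown for 3 days on a surface coated with residues 25 to 35 of beta-amyloid were compared with astrocytes that had not met the peptide. The exposed group is 3 arrays, numbered 1 to 3 in their titles, and the control group is 6 arrays, numbered 1 to 6, out of 18 arrays in all. The other 9 arrays hold 12 hours, 1 day and 5 days on the same peptide, 3 each. They enter only the estimate of spread and the comparisons between times.

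Control cells grew on laminin and nitrocellulose with no peptide, for a time that their labels do not state. The 3 exposed arrays and controls 3 to 6 carry cortical type-I astrocytes as their source, while controls 1 and 2 carry cerebral cortex as source and astrocytes in the title. Genotype, strain, age and the number of animals are unstated in the sources used here. Nothing in the labels says that arrays of a group came from separate cultures, so the p-values below reflect only sample-to-sample spread, part of which may be technical. A short synthetic stretch of the peptide on a culture surface is a model of contact with aggregated amyloid, not of a plaque.

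Astrocytes are the glia that clear glutamate, feed neurons and buffer potassium. Near amyloid deposits they turn reactive: they change shape, cytoskeleton and secreted proteins, and they can switch on inflammatory, complement and stress-defence genes. The fragment of residues 25 to 35 is the short stretch of the amyloid peptide most often used in culture, because it aggregates by itself and is toxic to neurons.

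The array carries 1322 probe sets, chosen for genes of neurobiology, and each has 1 linear signal per array. After 59 control probe sets and dim ones were left out, 1027 were tested, of which 926 carry 1 gene symbol and stand for 621 genes. Folds below are differences of mean log2 signal, 3 days minus control. Signals under 11.3, the 10th percentile, were raised to that value, so folds of dim genes are understated. Levels of different probe sets cannot be set against each other. The control mean of a probe set, below, is the mean of its log2 signals on the 6 controls. The number of arrays limits the precision of every value.

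Array 3 at 3 days stood apart from arrays 1 and 2. Over the tested probe sets the log2 signals of arrays 1 and 2 correlated at 0.958, while array 3 correlated with them at 0.800 and 0.810. It correlated with controls 1 and 2 at 0.916 and 0.945, and with controls 3 to 6 at 0.768 to 0.818. Arrays 1 and 2 were nearest to control 3, at 0.949 and 0.950. Between arrays 1 and 2, 108 probe sets (10.5%) differed by over 2-fold. Between array 1 and array 3 there were 344 (33.5%), and between array 3 and control 2 there were 141 (13.7%). When all 18 arrays were clustered into 2 clusters by these correlations, array 3 fell into cluster 1 with controls 1 and 2, all 3 arrays at 12 hours and 1 array at 1 day. Arrays 1 and 2 fell into cluster 2 with controls 3 to 6. Results are therefore given with all arrays, without array 3, and within clusters where these differ.

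**Figure D1:**
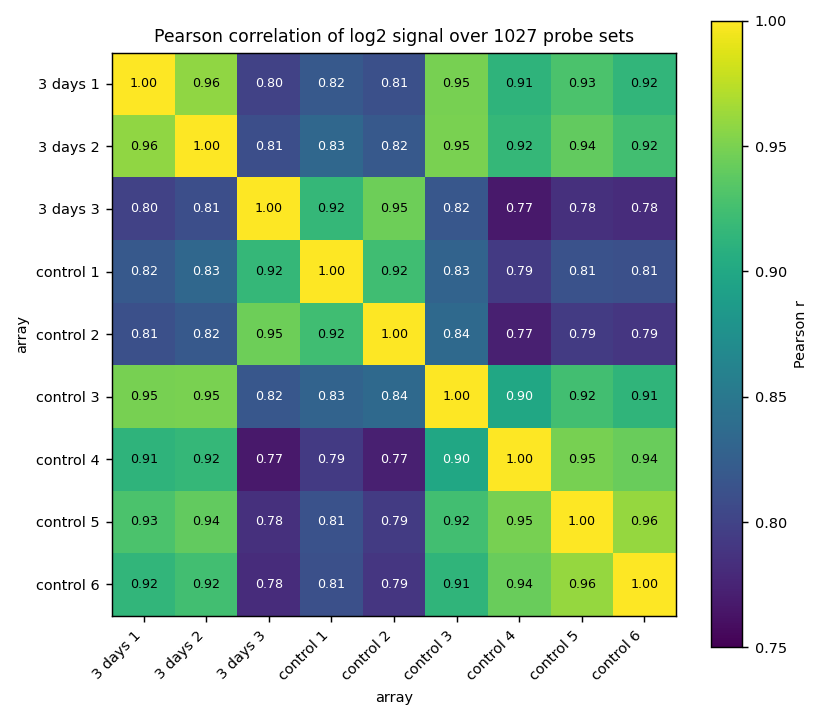
Pearson correlation of log2 signal over 1027 probe sets between the 3 arrays at 3 days and the 6 controls, arrays along both axes, colour and number giving r. Array 3 at 3 days is nearest to control 2 (0.945), and arrays 1 and 2 are nearest to each other (0.958).

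The signs of RNA quality did not set array 3 apart from the rest. The ratio of 3 prime to 5 prime signal was 0.925, 0.878 and 0.938 for beta-actin on arrays 1, 2 and 3 at 3 days, against 0.867 to 0.960 on the controls. For GAPDH it was 1.12, 1.12 and 1.24 at 3 days, against 0.955 to 1.33 on the controls. The mean signal after trimming 2% at each end lay between 502.067 and 502.632 on all 18 arrays, so they had been brought to a common level before deposit.

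Markers of the labelled cell type were present on most arrays. Vim, an intermediate filament of astrocytes, had signals of 12554.5, 14402.3 and 15247.7 on arrays 1, 2 and 3 at 3 days, against a lowest, median and highest control of 8770.4, 15054.6 and 18647.7. Slc1a3, the glial glutamate transporter and 1 of 3 markers taken as defining, had 2396.4, 2434.5 and 293.1 at 3 days, against 259.8, 2385.6 and 3927.7 on the controls. Gfap and Aqp4, the other defining markers, were not analysed here. Array 3 was thus low in Slc1a3, as were controls 1 and 2 with 533.3 and 259.8. In bulk RNA, fewer cells of a type and less RNA per cell cannot be told apart.

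Across all 1027 probe sets, no difference between 3 days and control passed the test. By limma, 0 probe sets (0.0%) had an adjusted p under 0.05, and the smallest adjusted p was 0.452, for Nrp2. At an unadjusted p under 0.05 there were 47 (4.58%), where 51.35 would pass if no probe set differed. In simulated data with these group sizes and no clusters, the same procedure recovered 50% of probe sets changed by log2 1 and 74% of those changed by log2 2. Many probe sets were changed at once there, by up to log2 3, which makes the adjusted threshold easier to pass. With few changes the shares can be lower, so they do not tell what could be detected here. All 3 arrays at 3 days lay above all 6 controls for 6 probe sets (0.584%), and below them for 10 (0.974%). All 3 lay above the control mean for 158 (15.4%) and below it for 142 (13.8%). For 413 probe sets arrays 1 and 2 lay on one side of the control mean and array 3 on the other. The median fold over all probe sets was 0.02. The genes below are those with the smallest p-values, with separate groups, or with the leading p-values of a gene list, and they are given as values.

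**Figure D2:**
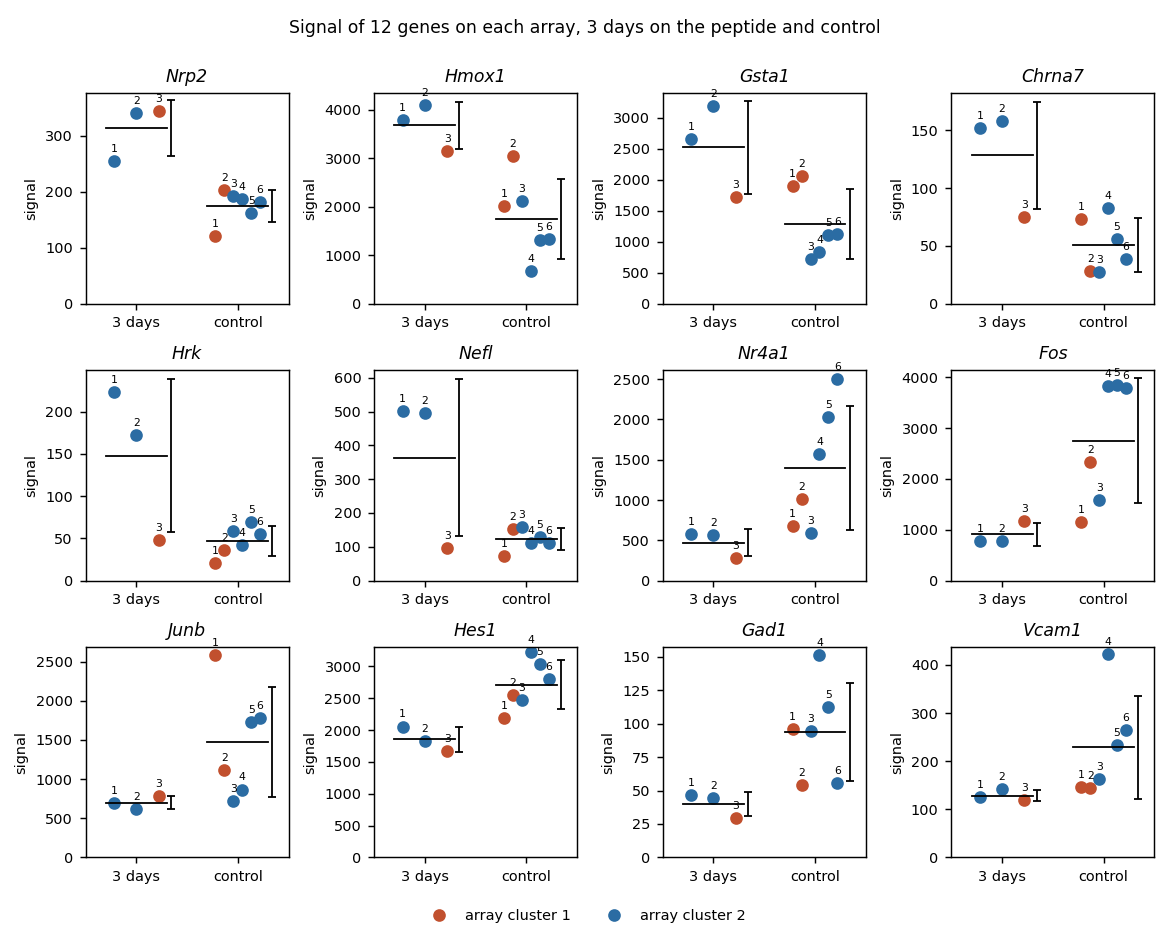
Signal (linear, from 0) of 12 genes on each array, 3 days left and control right; digits are array numbers, colours the 2 array clusters, horizontal lines group means and bars 1 SD (n = 3 and 6). Nrp2 and Hmox1 lie above every control and Nr4a1, Hes1, Gad1 and Vcam1 below every control, while Hrk and Nefl are high on arrays 1 and 2 only.

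Of the tested immediate early genes most had folds below 0 at 3 days, though none passed. These genes encode transcription factors that are switched on within minutes of a stimulus and fade within hours. Of the 22 on the list, 9 were tested, 0 passed in either direction, 7 had folds below 0 and 2 above. Over all 621 genes 297 had folds below 0. Their median fold was -0.63, against 0.01 over all 621 genes. The median was -0.70, -0.49 and -0.74 on arrays 1, 2 and 3 taken singly, each against the control mean, so on this list array 3 lay beside the other 2 arrays. The summed signal of the 9 genes was 12337.9, 12422.7 and 13581.5 at 3 days, against 13697.5 to 28460.2 on the controls. The lowest control, close to the exposed arrays, was control 3, the control nearest to arrays 1 and 2 over all probe sets. Controls 1 and 2 had 24364.5 and 19105.7, and controls 4 to 6 had 21407.5, 24671.3 and 28460.2.

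Nr4a1 is an orphan nuclear receptor whose gene responds to cAMP and calcium. Its signals were 572.7, 561.1 and 273.7 at 3 days, against a lowest, median and highest control of 584.7, 1293.8 and 2502.5. The groups did not overlap, though control 3 (584.7) lay close to arrays 1 and 2. The fold was -1.45 (SE 0.42, limma adjusted p = 0.877), and -1.10 without array 3. A second Nr4a1 probe set gave 381.6, 408.6 and 131.3 at 3 days, against 385, 697.1 and 1240.7, with a fold of -1.36 (-0.83 without array 3) and 1 control between the exposed arrays.

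Fos, which joins Jun proteins in the AP-1 transcription factor, had 772.9, 786.3 and 1164.9 at 3 days, against 1149.5, 3054.3 and 3846.7 on the controls. The overlap was between array 3 and control 1 alone. The fold was -1.48 (SE 0.55, limma adjusted p = 0.877). The other Fos probe sets gave -1.05 and -0.81, and in both control 1 lay below all 3 exposed arrays. Within cluster 2, where arrays 1 and 2 stand against controls 3 to 6, Fos was among the genes that passed. The clusters were formed from these same signals, so that pass is not independent support.

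Among the Jun genes, Jun had 754.2, 809 and 559 at 3 days, against 808.8, 1102.65 and 1752.8, with a fold of -0.70 (SE 0.24, limma adjusted p = 0.877). Only array 2 reached a control, control 3, which was nearly equal to it. Junb had 693.9, 617.1 and 778.9 at 3 days, against 721.8, 1420.5 and 2588.5, with a fold of -0.94 (SE 0.35, limma adjusted p = 0.877). Jund, the member of the family that is expressed without a stimulus, had a fold of 0.57 (SE 0.50) and 26.9, 104.7 and 131.2 at 3 days, and its fold was 0.13 without array 3. The Jun genes thus did not all lie on one side of control.

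Egr1, a zinc finger factor induced by growth factors and activity, was measured by 4 probe sets, with folds of -0.63, -0.72, -0.34 and -0.62. The brightest had 6951.3, 7358.7 and 8670.2 at 3 days, against 6751.4, 12625 and 16073.2 on the controls. Control 3 alone lay below the exposed arrays in that probe set. Fosl1, a Fos relative, had a fold of -0.48 that became 0.06 without array 3, and Fosl2 had 0.23, or 0.03 without array 3. Nr4a3, a relative of Nr4a1, had folds of -0.44, -0.13 and 0.71 on its 3 probe sets, which disagree.

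Promoters of Nr4a1, Egr1 and Junb, whose folds were below 0, are shown for elements known to drive such genes. Each sequence is the 250 bases before the gene's start in RefSeq on rat GRCr8, 5′ to 3′ on the gene's strand. Capitals mark the core of the cAMP response element, TGACG or its reverse complement CGTCA, and the CArG box, the element bound by serum response factor, read on both strands. Matches of the 2 kinds do not overlap.
Nr4a1 (chr7:134259888-134260137, plus strand): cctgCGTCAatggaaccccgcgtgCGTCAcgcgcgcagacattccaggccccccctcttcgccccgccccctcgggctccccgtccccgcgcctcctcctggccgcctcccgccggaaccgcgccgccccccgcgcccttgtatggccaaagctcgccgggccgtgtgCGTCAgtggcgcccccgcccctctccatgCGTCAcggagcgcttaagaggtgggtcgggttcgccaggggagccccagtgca
Egr1 (chr18:26736828-26737077, plus strand): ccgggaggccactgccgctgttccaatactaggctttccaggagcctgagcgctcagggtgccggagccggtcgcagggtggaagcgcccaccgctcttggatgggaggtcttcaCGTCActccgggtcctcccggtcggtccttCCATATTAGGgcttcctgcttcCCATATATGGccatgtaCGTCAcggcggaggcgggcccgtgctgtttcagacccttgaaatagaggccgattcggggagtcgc
Junb (chr19:40080876-40081125, plus strand): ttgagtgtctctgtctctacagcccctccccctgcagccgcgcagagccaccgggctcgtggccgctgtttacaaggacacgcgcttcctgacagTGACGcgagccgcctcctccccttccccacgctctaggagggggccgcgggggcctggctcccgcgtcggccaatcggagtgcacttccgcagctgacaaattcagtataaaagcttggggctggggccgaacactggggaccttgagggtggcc
Nr4a1 holds 4 such cores and no CArG box, Egr1 holds 2 cores and 2 CArG boxes, and Junb holds 1 core and no CArG box. Of 33469 promoter windows of this length in the table, 18.2% hold this core and 1.5% a CArG box. Promoters of 6 of the 9 tested immediate early genes were in the table, and 5 of them hold the core. Jund, whose fold was above 0, holds 3 cores, of which 2 overlap on opposite strands as 1 palindrome. Fosl1 holds 2 cores and Fosl2 holds 0. A match is a description of the letters and not evidence of binding.

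Heme oxygenase was the clearest of the stress-defence genes. Hmox1 encodes the inducible enzyme that breaks down heme to iron, carbon monoxide and biliverdin. It was higher on all 3 arrays at 3 days than on every control by both of its probe sets. The first had 3795.5, 4095.7 and 3142.4 at 3 days, against 677.4, 1673.2 and 3049.6 on the controls. The second had 6687.7, 6903.7 and 6217.1, against 1848.9, 3957.2 and 5306.4. Array 3 was the lowest of the exposed arrays in both. The highest control was control 2 in the first and control 1 in the second, both from the cluster of array 3. The folds were 1.21 (SE 0.41) and 0.87 (SE 0.34), and limma gave each an adjusted p = 0.877. Without array 3 they were 1.32 and 0.91. The first was 0.34 within cluster 1, where array 3 stands against controls 1 and 2, and 1.65 within cluster 2. Its controls 4 to 6 were at 677.4, 1308 and 1333.7, and controls 1 to 3 were nearer, at 2012.7, 3049.6 and 2108.6.

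Gsta1, a glutathione transferase that conjugates toxic lipid products, had 2656.4, 3193.9 and 1718.9 at 3 days, against 716.3, 1111.35 and 2062.2. Array 3 lay below controls 1 and 2. The fold was 1.04 (SE 0.37, limma adjusted p = 0.877), and a second probe set gave 0.60. Both probe sets are of the type that can hybridise to several members of the transferase family, so the signal may not be that of Gsta1 alone. Within cluster 1, where array 3 stands against controls 1 and 2, the fold of the first was -0.20.

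The antioxidant list, which includes Hmox1 and Gsta1, gave no common direction. Of 24 genes 9 were tested, 0 passed, 5 had folds above 0 and 4 below, with a median of 0.33. Array 3 differed from the others here: the medians were 0.89 and 0.52 on arrays 1 and 2 and -0.24 on array 3. Sod3, the extracellular superoxide dismutase, had 5302.9, 4522.5 and 1091.2 at 3 days, against 883.4, 2259.3 and 4057.9 on the controls. Its fold was 0.64 with all arrays and 1.37 without array 3. Sod2, the mitochondrial enzyme, had 781.1, 1071.1 and 989.4 at 3 days, inside the control range of 304.1 to 2648.

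The metallothioneins Mt1 and Mt2A, which bind zinc and copper, had signals on all 3 exposed arrays that lay below controls 1 and 4 to 6 and above controls 2 and 3. Mt2A had 1157.1, 1242.7 and 735.2 at 3 days. The controls themselves lay far apart, at 16156.3, 12608.9 and 13663.7 on controls 4 to 6 and at 1798.4, 461.3 and 516.4 on controls 1 to 3. Its fold of -1.68 (SE 1.15, limma adjusted p = 0.999) lies within that spread. Mt1 had 1001.9, 874.8 and 1087.2 at 3 days, against 812, 2098.65 and 3251.4, with a fold of -0.79 (SE 0.39).

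Among iron genes, Tfrc, the transferrin receptor that brings iron into the cell, was lower on all 3 exposed arrays than on every control. Its signals were 151.5, 164.4 and 184.3 at 3 days, against 193.1, 263.75 and 342.8. The fold was -0.64 (SE 0.31, limma adjusted p = 0.947), and -0.72 without array 3. Tf, the iron carrier transferrin, had folds of -0.23, -0.54 and -0.75 on 3 probe sets. Aco1, the iron-sensing aconitase that steadies Tfrc transcripts when iron is scarce, had a fold of 0.07. Of the 4 tested iron genes 0 passed.

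Nrp2 had the smallest p-value of all probe sets. It encodes neuropilin 2, a co-receptor for class 3 semaphorins and for vascular endothelial growth factors. Its signals were 255.6, 340.4 and 345.1 at 3 days, against 121.5, 184.85 and 202.7 on the controls, a mean of 313.7 ± 50.4 (SD, n = 3) and 174.85 ± 29.3 (SD, n = 6). The groups did not overlap. The fold was 0.85 (SE 0.19, limma adjusted p = 0.452), or 1.80 as a ratio. Array 3 was not low here. Without it the fold was 0.77, and without array 3 and controls 1 and 2 it was 0.71. Nrp1, the other neuropilin, had 376.7, 382.8 and 1237.5 at 3 days, against 159.1, 348.45 and 681.2, and its fold of 0.83 became 0.26 without array 3. Of 34 axon guidance genes 3 were tested, the neuropilins and Epha7, an ephrin receptor with a fold of 0.92 that became 0.25 without array 3.

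Hes1 lay below every control in both of its probe sets. It encodes a transcriptional repressor that acts downstream of Notch, holds progenitors undifferentiated and represses its own gene. The first probe set had 2055.8, 1829.8 and 1675.2 at 3 days, against 2190.9, 2677.4 and 3228.9. The second had 1615.5, 1294.5 and 1397.6, against 1682.8, 2175.35 and 2526.8. The folds were -0.54 (SE 0.19) and -0.59 (SE 0.23), and limma gave each an adjusted p = 0.877. Leaving out array 3 gave -0.47 and -0.57. The Hes1 promoter is shown for the site of RBPJ, the DNA-binding partner of Notch, whose core GTGGGAA (or TTCCCAC on the other strand) is in capitals.
Hes1 (chr11:84213046-84213295, minus strand): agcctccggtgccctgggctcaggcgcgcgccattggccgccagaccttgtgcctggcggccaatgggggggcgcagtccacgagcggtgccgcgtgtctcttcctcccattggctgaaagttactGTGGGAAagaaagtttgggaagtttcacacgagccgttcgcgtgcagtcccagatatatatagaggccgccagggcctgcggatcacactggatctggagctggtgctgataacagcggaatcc
It holds 1 such core, 124 bases before the start, against 5.27% of all promoter windows that hold any.

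Inflammatory genes gave no common direction. Of the 51 cytokines, chemokines and receptors 22 were tested, 0 passed, and 7 had folds above 0 and 15 below, with a median of -0.13. C3, the central complement component and a marker of reactive astrocytes, had 48.3, 30.9 and 24.7 at 3 days, against 23.1, 97.1 and 125.8, with only control 2 below the exposed arrays. The fold was -1.17 (SE 0.46, limma adjusted p = 0.877). A second C3 probe set was under the floor of 11.3 on all 3 exposed arrays and had 9.4, 20.55 and 171.1 on the controls.

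Vcam1, an adhesion molecule induced by cytokines, had 124.5, 141.1 and 119.3 at 3 days, against 144.8, 198.65 and 422.2, with no overlap and a fold of -0.73 (SE 0.31, limma adjusted p = 0.877). Controls 1 and 2, at 145.2 and 144.8, lay next to the exposed arrays. In a second Vcam1 probe set the groups overlapped, with 8.9, 54.8 and 2.6 at 3 days, against 3.4, 85.4 and 288.3, and the fold was -1.52 (SE 0.93, limma adjusted p = 0.999). Icam1, another adhesion molecule of this kind, had folds of -0.31 and -0.27 (-0.73 and -0.69 without array 3), and its array 3 (4623.3 in the brighter probe set) lay above arrays 1 and 2 (1916.8 and 1942.6). Vcam1 and Icam1 thus differed in how array 3 stood.

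The chemokine Ccl2, which draws monocytes, showed how far the result depends on array 3. It had 10779.8, 10904.9 and 336.2 at 3 days, against 1816.2, 7730.2 and 9500.7. Arrays 1 and 2 lay above every control and array 3 below every control. The fold was -0.82 with all arrays and 0.85 without array 3. Ptgs2, the inducible cyclooxygenase, had 802.4, 768.5 and 219.8 at 3 days, against 171.5, 324.15 and 1407.4, and Ptgs1, the constitutive one, had 959.2, 843.3 and 94.3, against 87, 273.8 and 627. Their folds were 0.42 and 0.90, and 1.03 and 1.98 without array 3. The chemokine Ccl5 was at 13, 13 and 15 on the exposed arrays, close to the floor, and at 1496.3 on control 1 alone, with 11.4 to 24.2 on the other controls.

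Genes of cytokine signalling split by array too. On the list of Jak-Stat and NF-kappaB genes 7 of 23 were tested and 0 passed. Its medians were -0.59, -0.44 and 0.77 on arrays 1, 2 and 3. Jak2, a kinase of cytokine receptors, had 89.7, 123 and 226.5 at 3 days, against 144.7, 216.7 and 314.7, with a fold of -0.73 (SE 0.29, limma adjusted p = 0.877), -1.10 without array 3, and other probe sets at -0.30 and 0.24. Socs3, a feedback inhibitor of this pathway, had 64.7, 53.2 and 339.8 at 3 days, against 44, 272.7 and 387.3, with a fold of -0.70 with all arrays and -1.54 without array 3.

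Of 18 astrocyte markers 9 were tested, and 8 of the 9 had folds below 0, with a median of -0.40. None passed. The medians were -0.42, -0.26 and -0.67 on arrays 1, 2 and 3. The summed signal was 26189.3, 29010.7 and 33699.7 at 3 days, against 24387.7 to 38725.3 on the controls. Apoe, the lipid carrier secreted by astrocytes, had 1675.2, 1380.1 and 951.6 at 3 days, against 956.1, 3801.85 and 5594.4, and a fold of -1.08 (SE 0.58, limma adjusted p = 0.999). Its other probe set had 985.5, 1125.7 and 308.1 at 3 days, against 583.4, 3786.45 and 5972.9, with a fold of -1.73 (SE 0.79, limma adjusted p = 0.947) and -1.14 without array 3. In the first, controls 2 and 3 lay near the exposed arrays, at 956.1 and 1301.8. Glul, glutamine synthetase, had 5909.8, 6621.2 and 4981.2 at 3 days, against 5504.1, 8511.65 and 11456.1, with a fold of -0.45 (SE 0.23). Its other probe sets gave -0.28, -0.43 and -0.23.

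Several astrocyte markers were split within the exposed group. S100b, a calcium-binding protein, had 555.2, 681 and 20 at 3 days, against 19.7, 796.05 and 1209, with array 3 and control 2 at the low end. Gja1, which encodes connexin 43, had 1218.9, 1264.1 and 11591.7 at 3 days, against 810.6, 1698.8 and 8604.3, with array 3 and controls 1 and 2 (4269.5 and 8604.3) at the high end and a fold of 0.22 that was -0.85 without array 3. Atp1b2, a sodium pump subunit, had folds of -1.76 and -0.51. Slc1a2, the other glial glutamate transporter, had 55.2, 58.7 and 69.3 at 3 days, against 36.5, 93.7 and 107.4, with a fold of -0.40.

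The list of reactive astrocyte genes had 7 of 18 tested, 0 passed, and medians of -0.11, -0.04 and -0.83 on arrays 1, 2 and 3. Nes, the filament protein nestin that reactive and immature astrocytes express, had 5967.9, 5722.3 and 721.8 at 3 days, against 856.3, 4234.7 and 5028. Arrays 1 and 2 were the highest of the 9 and array 3 the lowest. Hspb1, a small heat shock protein, had 15144.3, 15762.6 and 3160.2 in its brightest probe set, against 2443.5, 17721.7 and 20585.9, where array 3 stood with controls 1 and 2 (2443.5 and 3678.3). For both genes the fold with all arrays is thus a mean over unlike arrays.

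**Figure D3:**
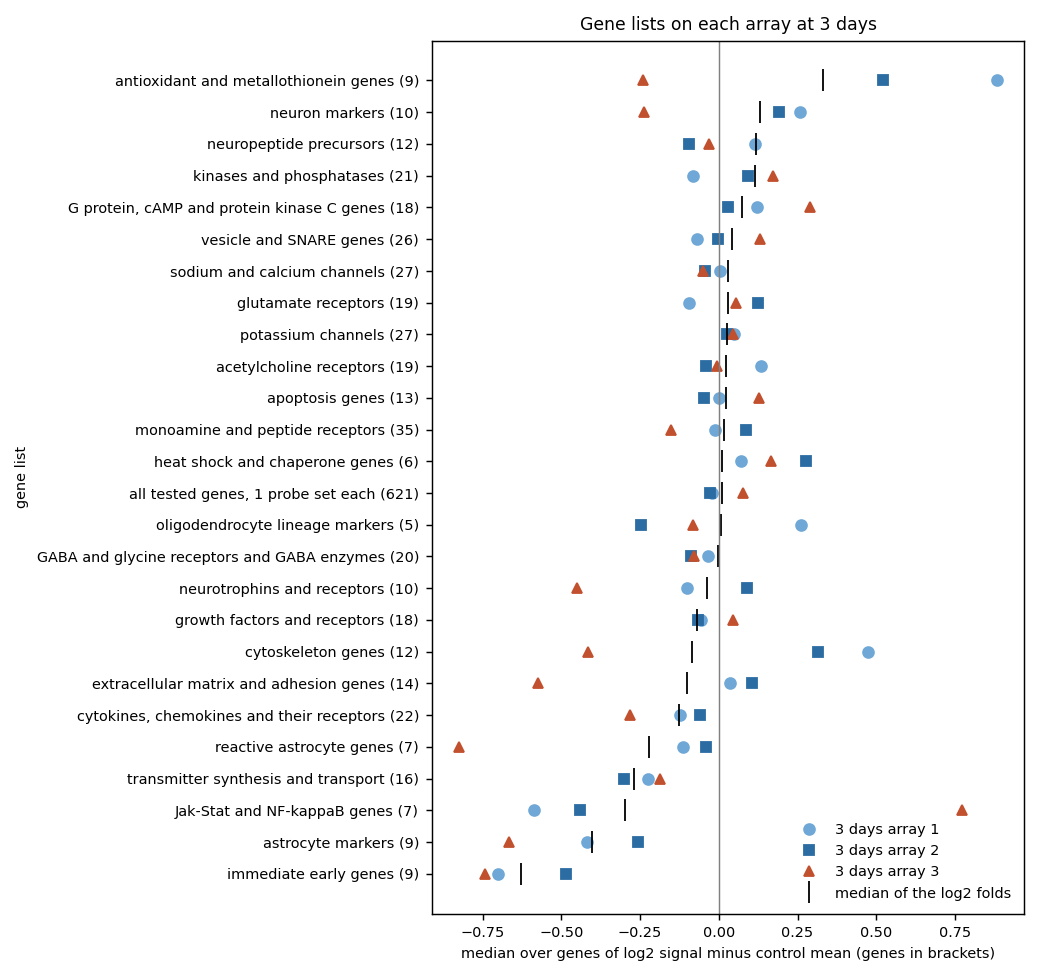
Median over the genes of each list of log2 signal minus the control mean on arrays 1, 2 and 3 at 3 days, with the median of the log2 folds (bar) and the number of genes tested in brackets. Immediate early genes and astrocyte markers lie below 0 on all 3 arrays, while reactive astrocyte, antioxidant, cytoskeleton and Jak-Stat lists put array 3 away from arrays 1 and 2.

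Transmitter, receptor and channel genes make up much of the array. Gad1, the enzyme that makes GABA from glutamate, was the one with the smallest p-value among them. Its signals were 46.3, 44.3 and 29.3 at 3 days, against 54.2, 94.95 and 151.4 on the controls, with no overlap. The fold was -1.17 (SE 0.30, limma adjusted p = 0.665), and -0.96 without array 3. Its 3 exposed signals lay near or under 44.9, the signal that a probe set had to exceed on at least 3 arrays to be tested. Gabre, a GABA receptor subunit, had 60.7, 90.2 and 27 at 3 days, against 69.4, 100 and 144.9, with a fold of -0.93 (SE 0.36) that was -0.44 without array 3. On the GABA and glycine list 20 of 34 were tested, 0 passed, and 10 folds lay on each side of 0.

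Chrna7, the alpha 7 nicotinic acetylcholine receptor that is known to bind amyloid peptide, had 151.9, 158 and 75.1 at 3 days, against 27.3, 47.35 and 82.3. Arrays 1 and 2 lay above every control and array 3 below 1 of them. The fold was 1.39 (SE 0.43, limma adjusted p = 0.877). The gene's other probe sets gave -1.17 and -0.26, so they disagree in direction. Chrm5, a muscarinic receptor, had 241.4, 217.8 and 241.7 at 3 days, against 93.9, 155.5 and 223.3, with a fold of 0.58 (SE 0.27). The acetylcholine receptor list had 19 of 24 tested, 0 passed, and a median of 0.02, near that of all genes. Glutamate receptors were alike, with 19 of 35 tested, 0 passed and a median of 0.03, and so were potassium channels, with 27 of 48 tested, 0 passed and a median of 0.03.

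The neurofilament genes Nefl and Nefm were high on arrays 1 and 2 only, while 7 of the 12 tested cytoskeleton genes had folds below 0. Nefl, the light neurofilament chain, had 501, 495.8 and 95.1 at 3 days, against 72.5, 119.7 and 159.1 on the controls, with a fold of 1.27 (SE 0.51, limma adjusted p = 0.877) and 2.07 without array 3. Its second probe set had 105.5, 163.9 and 23.6, against 13.6, 21.85 and 78. Nefm, the medium chain, had 152.5, 198.9 and 21.7, against 28.3, 58.2 and 98.1. In all 3 probe sets arrays 1 and 2 lay above every control, and array 3 lay inside or below the control range.

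Markers of other cell types were measured beside these values. Of 16 neuron markers 10 were tested, with a summed signal of 5935.5, 5528.6 and 4018.5 at 3 days, against 3642 to 6287.6 on the controls. Map2, a defining neuron marker, had 533.9, 605.1 and 50.7 in its brightest probe set, against 31.1, 350.95 and 631.9, and was low on array 3 and on controls 1 and 2 (74 and 31.1). Snap25, the other defining neuron marker measured, had 154.3, 118.5 and 103.2 at 3 days, against 81.9, 107.05 and 186.3. Oligodendrocyte markers (5 of 14 tested) summed to 1322.3, 1216 and 1968.9 at 3 days, against 1095 to 1917.9, with Mbp, a defining marker, at 84.1, 55.2 and 61.4 against 28, 94.95 and 99.1. Of microglia markers 1 of 12 was tested, Itgam, with 62.4, 47.7 and 77 at 3 days, against 37.3, 53.6 and 65.8. Fibroblast and meningeal markers (3 of 10 tested, no defining one) summed to 15615.3, 14998.6 and 30720 at 3 days, against 10715.5 to 25844.1. Of these sums Igfbp2 gave 14680, 14144.5 and 21437.3 at 3 days. Igf2 had 514.7, 470.7 and 8743.8 at 3 days. On controls 1 and 2 it had 3729.6 and 8043, and on controls 3 to 6 it had 211.2 to 532.5. Among its other probe sets were folds of -0.07 and -0.04. No endothelial marker was tested. Probe sets too dim to be tested also had signals above 0, so a low signal of these markers does not show that the cell type was present. The other defining markers were not analysed here. The part of these cells in the results was not tested.

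Hrk, also called harakiri, a BH3-only protein that promotes cell death, was high on the same 2 arrays as the neurofilaments. It had 223.5, 172.6 and 48 at 3 days, against 20.6, 48.75 and 69.7, with a fold of 1.48 (SE 0.49, limma adjusted p = 0.877) and 2.16 without array 3. Its other probe sets gave 0.18 and -0.52. Bax, which opens the mitochondrial membrane in apoptosis, had folds of 0.46, 0.23 and 0.04. Of 29 apoptosis genes 13 were tested, 0 passed, and their median was 0.02.

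Among growth factors and their binding proteins 18 of 43 were tested and 0 passed. Igfbp5, a binding protein for insulin-like growth factors, had 1629.7, 1693.6 and 425.7 at 3 days, against 160.8, 482.75 and 1157.1, so that arrays 1 and 2 lay above every control. Its fold was 1.27 (SE 0.61, limma adjusted p = 0.947), or 1.92 without array 3, and a second probe set gave 1.18 with control 5 (1938.4) near arrays 1 and 2. Fgf5, a fibroblast growth factor, lay below every control with 30.2, 26 and 35.9 at 3 days, against 37.5, 47.4 and 74.9. Its fold was -0.75 (SE 0.37), from signals that are under 44.9 on all exposed arrays.

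The other probe sets with separate groups were signalling and trafficking genes, and 2 with no single symbol. Pde4b, a phosphodiesterase that degrades cAMP, had 74.8, 95.9 and 95.6 at 3 days, against 23.1, 56.9 and 71.4, with a fold of 0.78 (SE 0.34), while its other probe sets gave -0.04 and -1.08. Pja2, a ubiquitin ligase that acts on protein kinase A, had 1630, 1624 and 1440.3, against 1045.6, 1213.2 and 1386.2, with a fold of 0.36 (SE 0.18). Its other probe sets gave 0.66 and -0.01. Camk2d, a calcium and calmodulin dependent kinase, had 82.9, 99.6 and 87.1, against 100.9, 134.9 and 228.8, with a fold of -0.63 (SE 0.27) in 1 of 5 probe sets. The others lay between -0.24 and 0.33. Stx12, a syntaxin of endosomes, had 292.4, 358.3 and 340.6, against 361.7, 418.2 and 587.8, with a fold of -0.44 (SE 0.22). In a second Stx12 probe set the groups overlapped and the fold was -0.15.

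Array 3 differed from arrays 1 and 2 on many probe sets. On 315 probe sets (30.7%) array 3 lay over 2-fold from the mean of arrays 1 and 2, above it on 153 and below it on 162. This is 1 array against 2 of the same group, so it has no test. In most of the named genes that were high on array 3, controls 1 and 2 were high too. Foxd1, a forkhead transcription factor, had 75.2, 43 and 3445.2 at 3 days, with 1807.5 and 1942.8 on controls 1 and 2 and 27.8 to 38.2 on controls 3 to 6. Foxd3 and Foxd4 gave the same picture from probe sets that can cross-hybridise within the forkhead family, as that of Foxd1 can. Sst, the neuropeptide somatostatin, had 21.1, 20.7 and 540.8 at 3 days, with 1424.9 and 643.5 on controls 1 and 2 and at most 43.9 on the others. A second Sst probe set had 43.8, 33.9 and 63.7 at 3 days, with 418 and 309.5 on controls 1 and 2. There array 3 stood nearer to arrays 1 and 2 than to those controls. Ctsk, the collagen-degrading protease cathepsin K, had 188.3, 170.9 and 2138.5, with 1567.6 and 1519.7 on controls 1 and 2. Agtr1a, an angiotensin receptor, had 557.1 on array 3, above every control, with at most 246.9. C4b, a complement component, had 52, 46.3 and 816.2 at 3 days and broke the pattern, since controls 4 to 6 had 588.4, 400.7 and 368.3.

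Among the genes lowest on array 3 relative to arrays 1 and 2 were matrix, receptor and channel genes. Ncan, the proteoglycan neurocan, had 3430, 3199 and 21.7 at 3 days, with 145.2 and 57.3 on controls 1 and 2 and 1788.3 to 3575.9 on controls 3 to 6. Gria2, an AMPA receptor subunit, had 536.7, 715 and 9, with 8.5 and 9.7 on controls 1 and 2. Prkcb, a protein kinase C, had 575.4, 669.3 and 10.6, with 33.7 and 46.2 on controls 1 and 2 and 591.3 to 752 on the rest. Igfbp3 had 4816.8, 4707.1 and 87.9, with 16.3 and 112.9 on controls 1 and 2, and arrays 1 and 2 lay above the highest control of 3529.2. Ltbp2, a matrix protein, had 1788.8, 1316.8 and 22.7, and Cacna2d1, a calcium channel subunit, had 502.2, 810.3 and 13.8. In each of these genes array 3 stood with controls 1 and 2, while arrays 1 and 2 stood near or above controls 3 to 6, except in Cacna2d1, where they lay below controls 3 to 6 (956.6 to 1475.8).

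**Figure D4:**
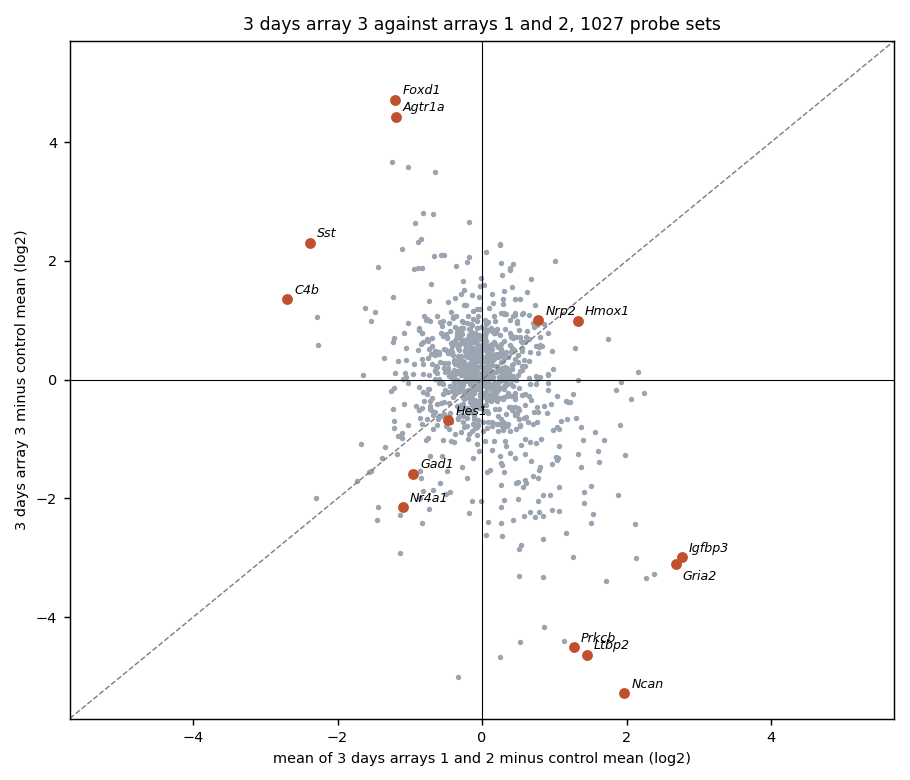
Log2 signal minus the control mean of the mean of arrays 1 and 2 (x axis) and of array 3 (y axis) at 3 days, 1 point per probe set, dashed line at equal values. Nrp2, Hmox1 and Hes1 lie near the line and Gad1 and Nr4a1 somewhat below it, while Foxd1, Agtr1a and Sst lie at upper left and Ncan, Gria2 and Igfbp3 at lower right.

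Leaving out array 3 let 3 probe sets pass (0.292%), all of them lower at 3 days. Kcnj16, an inward rectifier potassium channel, had 13.7 and 9 on arrays 1 and 2, against 45.6, 58.05 and 88.9 on the controls, and 126.1 on array 3. Its log2 fold without array 3 was -2.28 (SE 0.32, limma adjusted p = 0.00455). Glra1, a glycine receptor subunit, had 15.1 and 10.9 on arrays 1 and 2, against 48.1, 67.55 and 75.6, and 95.1 on array 3. Its fold was -2.28 (SE 0.42, limma adjusted p = 0.0434), while its second probe set gave 0.27. Enpp2, or autotaxin, which makes lysophosphatidic acid, had 22.9 and 44.1, against 68, 81 and 97.9, and 105.5 on array 3, with a fold of -1.36 (SE 0.26, limma adjusted p = 0.0455). In these 3 probe sets array 3 lay above every control. For Kcnj16 and Glra1 the signals of arrays 1 and 2 were near or at the floor. A second Enpp2 probe set had 7.5, 11.4 and 80.6 at 3 days, against 9, 38.15 and 109 on the controls. There array 3 lay inside the control range.

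Leaving out controls 1 and 2 as well let 1 probe set pass (0.0974%), Kcnj16, with a fold of -2.09 (SE 0.31, limma adjusted p = 0.0196). The fit within cluster 2 has the same 2 exposed arrays and 4 controls, but takes its spread from the 11 arrays of that cluster. There 6 probe sets passed (0.584%), 2 higher and 4 lower. The clusters were formed from these same signals, so the spread within them may be understated and these passes are not independent support. Nefl (1.98, limma adjusted p = 0.0468) and Hrk (1.82, limma adjusted p = 0.0485) were higher. Lower were Kcnj16 (-2.09, limma adjusted p = 0.0468), Glra1 (-2.17, limma adjusted p = 0.0482) and Fos by 2 probe sets (-1.97 and -1.61, limma adjusted p = 0.0485 for both).

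Within cluster 1 the comparison is of array 3 alone with controls 1 and 2, and array 3, being alone, takes its spread from those groups that have several arrays there. In that fit 1 probe set passed (0.0974%). Gal, the neuropeptide galanin, had 15.3 on array 3, against 359 and 393 on controls 1 and 2, a fold of -4.62 (SE 0.17, limma adjusted p = 0.00385). On arrays 1 and 2 it was 19.5 and 11.8, and on controls 3 to 6 it was 53.5, 11.8, 15.6 and 11.6. The lower value is thus seen against controls 1 and 2 and not against controls 4 to 6. This fit too rests on clusters formed from these same signals.

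Values at the other times place the leading genes. Nrp2 had 117 to 142.2 at 12 hours, 240.9 to 295.9 at 1 day, 255.6 to 345.1 at 3 days and 132.7 to 190.2 at 5 days, against 121.5 to 202.7 in control. The difference between 3 days and 12 hours was 1.29 (limma adjusted p = 0.0145), and 23 probe sets (2.24%) passed in that comparison. Of the leading genes it also took in Hrk (2.92) and Chrna7 (2.55), each with limma adjusted p = 0.0208, Nefl (2.76, limma adjusted p = 0.0255) and Igfbp5 (3.02, limma adjusted p = 0.0331), all higher at 3 days. Junb was lower at 3 days, with 617.1 to 778.9, against 2358.1 to 3070.3 at 12 hours (-1.98, limma adjusted p = 0.0255). Egr1, in its brightest probe set, was lower at 3 days than at 12 hours too (-1.19, limma adjusted p = 0.0435). All arrays at 12 hours lie in cluster 1 and 2 of the 3 arrays at 3 days in cluster 2, so time and cluster cannot be fully told apart in this comparison.

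Between 5 days and 3 days 3 probe sets passed (0.292%), all higher at 5 days, and between 3 days and 1 day 1 passed (0.0974%), of Nalcn, a sodium leak channel, with 2.62 (limma adjusted p = 0.0424). Tf had 370.1 to 572.4 at 5 days and 104.7 to 145.3 at 3 days, a difference of 1.88, and a second Tf probe set gave 3.32 (limma adjusted p = 0.0136 for both). The dimmer C3 probe set had 146.3 to 385.3 at 5 days and was under the floor at 3 days, a difference of 4.56 with the floor applied (limma adjusted p = 0.0334).

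Nr4a1 had 674.3 to 746.6 at 12 hours, 965.8 to 1582.2 at 1 day, 273.7 to 572.7 at 3 days and 1681.6 to 2440.3 at 5 days, so 3 days was below every other array of the 4 times. Its difference between 5 days and 3 days was 2.27 (limma adjusted p = 0.0514). Hmox1 had 1768 to 2127.7 at 12 hours, 1255.5 to 2752.5 at 1 day, 3142.4 to 4095.7 at 3 days and 785.5 to 1850.1 at 5 days, so 3 days was above every other array of the 4 times. The difference between 5 days and 3 days was -1.43 (limma adjusted p = 0.232).

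**Figure D5:**
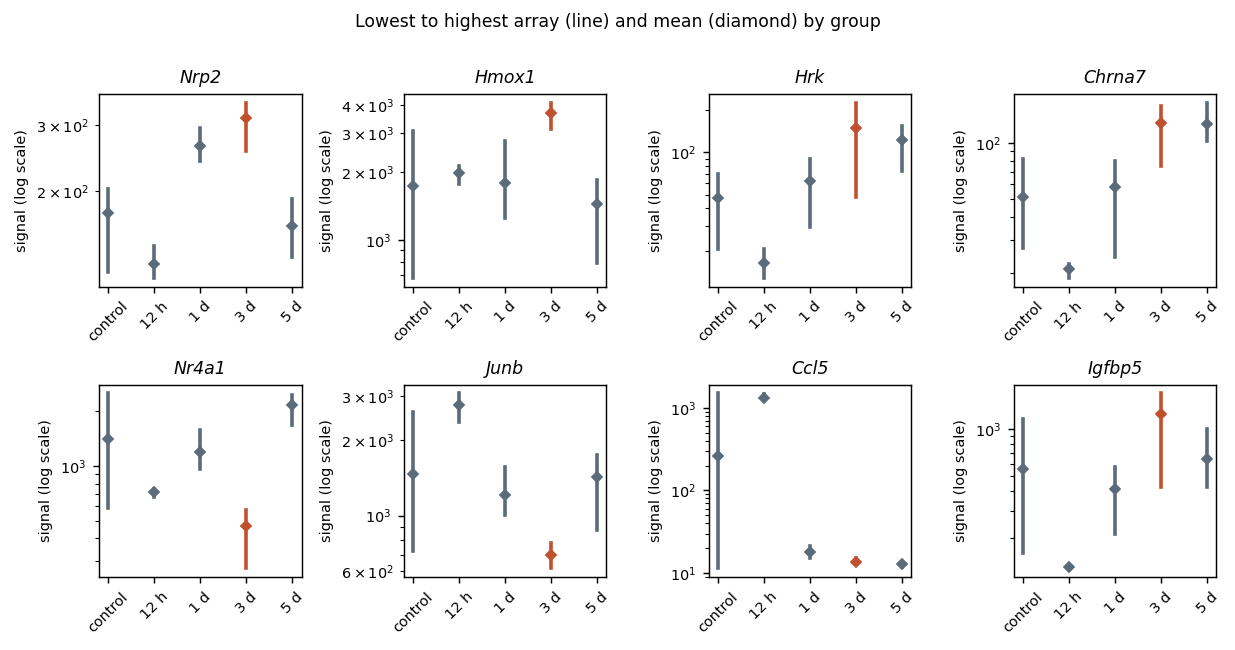
Signal (log scale) of 8 genes in control and after 12 hours, 1 day, 3 days and 5 days on the peptide; lines run from the lowest to the highest array and diamonds are means (3 arrays per time, 6 controls). Nrp2 and Hmox1 have their highest mean and Nr4a1 and Junb their lowest at 3 days (red), and Ccl5 is high at 12 hours and on control 1.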

How the data were processed

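RNA of 18 rat astrocyte samples was measured on 1 array each. The deposited table holds linear intensity values (signal), 1 per probe set and array, while how the authors computed and scaled it is not given in the sources used here. Signals were floored at the 10th percentile (11.3) and log2 was taken of the deposited intensity. Of 1263 probe sets that are not controls, those over the 30th percentile (44.9) on at least 3 arrays were kept. Symbols came from the platform annotation: 1137 probe sets had 1 symbol, 8 several and 118 none, and 1132 matched RefSeq. All 18 arrays were fitted in 1 model of 5 groups with limma 3.58.1 on R 4.3.3 (13 residual degrees of freedom, median residual SD 0.490), two-sided, with Benjamini-Hochberg adjustment over 1027 probe sets. The procedure was tested on simulated data, where 0.846% of unchanged probe sets were called. For 3 days and control, arrays of the same number had deviations correlated at -0.50, -0.60 and -0.42, so the numbers were not taken to pair the samples. No 2 arrays were copies: at most 0.681% of values were identical.

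Named were the 12 smallest p-values in each direction with all 3 exposed arrays on one side of the control mean, the 8 largest folds with separate groups, the 3 smallest p-values in each list, 12 fixed genes, the 8 largest differences of array 3 in each direction, and genes that passed in fits without array 3 or within clusters. Other members of the lists were named after their values were seen. The comparison, lists and rules were chosen with earlier results of these data known.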

Additional observations from a re-analysis of the deposited data

Results flagged for a closer look

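Of the genes named or followed here, 11 had 1 control far from the other 5, by the gap to the nearest control over the range of all 6. Chance gives such a gap in about 1 of 20 groups. The 120 named probe sets were among those looked at, so several such gaps can arise by chance. Whether 11 is more than that was not tested. The far control was high for Ccl5 (1496.3 on control 1), Hspe1, a mitochondrial chaperonin (6783.6 on control 1), Cntn1, the adhesion molecule contactin 1 (318.5 on control 4), and Map1a, a microtubule protein (1492.4 on control 3). It was low for Pde4b (23.1), Slc1a2 (36.5) and Pdgfra, a growth factor receptor (13.3), all on control 3. It was low on control 2 for S100b (19.7) and for the phosphodiesterase Pde4d (10.1), and on control 1 for Igfbp2 (5011) and the sodium channel Scn9a (20.2).

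Differences between 3 days and 12 hours passed the limma test for 10 genes of the naming rule, listed next, and for each of them all 3 arrays at 3 days lay beyond all 3 at 12 hours. Higher at 3 days were Nrp2 by 1.29 (limma adjusted p = 0.0145), Hrk by 2.92 and Chrna7 by 2.55 (limma adjusted p = 0.0208 for both), Nefl by 2.76 and Oprm1, the mu opioid receptor, by 2.19 (limma adjusted p = 0.0255 for both). Also higher were Sv2a, a synaptic vesicle protein, by 1.27 (limma adjusted p = 0.0274), Igfbp5 by 3.02 (limma adjusted p = 0.0331) and Nalcn by 2.33 (limma adjusted p = 0.0496). Lower at 3 days were Ccl5, with -6.60 (limma adjusted p = 0.0208), and Junb, with -1.98 (limma adjusted p = 0.0255). Further probe sets passed too: Egr1 was lower at 3 days than at 12 hours, with -1.19 (limma adjusted p = 0.0435), and so was Glul by 2 of its 4 probe sets, with -1.38 (limma adjusted p = 0.0358) and -1.15 (limma adjusted p = 0.0255). A second Nalcn probe set was higher at 3 days than at 12 hours by 3.35 (limma adjusted p = 0.00255) and than at 1 day by 2.62 (limma adjusted p = 0.0424). Higher at 5 days than at 3 days were Tf, by 1.88 and 3.32 in 2 probe sets (limma adjusted p = 0.0136 for both), and C3, by 4.56 in its dimmer one (limma adjusted p = 0.0334). Chrna7 and Hrk have other probe sets whose folds against control differ in direction. The Oprm1 probe set that passed had folds against control of 0.88 at 3 days and -1.31 at 12 hours. Other tested Oprm1 probe sets had smaller ones, of 0.05 and 0.08 at 3 days and -0.33 and -0.17 at 12 hours.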

How the results depend on the processing

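The count of 0 probe sets past the threshold at 3 days held in 19 of 23 alternative settings, which varied the floor, filter, normalization, model options and arrays. Leaving out single arrays gave 0 higher in every case and 0 to 3 lower, the 3 being without 3 days array 3. Without that array and controls 1 and 2 there was 1 lower. Within cluster 1 there was 1 lower, and within cluster 2 there were 2 higher and 4 lower. These fits hold fewer arrays, the clusters were formed from these same signals, and the cause was not tested. At an unadjusted limma p under 0.05 the settings gave 30 to 137 probe sets. With the replicate number as a block 0 passed, with 41 at an unadjusted p under 0.05 against 47 without it, and the block changed no other call. Arrays of 1 number did not deviate together. With the clusters as a block 0 passed, with 92 at an unadjusted p under 0.05. Of 2760 fold values of 120 named probe sets, 104 in 45 probe sets had the other sign than with all arrays: 21 within cluster 1, 18 without array 3 and 22 with the replicate block among them. Of the 31 probe sets named for a small p-value or separate groups, 1 changed sign, Gsta1 within cluster 1, at -0.20. These 31 were chosen for having all 3 exposed arrays on one side of the control mean or of every control. Leaving out 1 exposed array could thus not change their sign, and their steady sign is not support. Genes that passed in other fits changed sign within cluster 1 too: Kcnj16 to 0.67, Glra1 to 0.38, Enpp2 to 0.46 and Nefl to -0.15. Among the 120 named probe sets there were 10 cases of a pass only in the alternative. The second Fos probe set that passed within cluster 2 comes on top of these. Signals near the floor and 3 exposed arrays limit what could be detected.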
